A study of Mus musculus with 24 samples.

Results

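Vectors against the histone demethylase genes Kdm5b and Kdm5c, given alone to female mice on an alcohol diet, were set against control vectors. The comparison takes 6 of the 24 liver libraries of the series, picked by their labels: 3 from females with the Kdm5 vectors and 3 from females with control vectors. The first group, here called Kdm5 females, received AAV-shKdm5b and AAV-shKdm5c in the first injection and AAV-shControl in the second. The other, here called control females, received AAV-shControl in both injections. AAV is an adeno-associated virus used to carry DNA into tissue, and sh denotes a short hairpin RNA that lowers the messenger RNA it is directed against. Every mouse, control females included, had 3 weeks of Lieber-DeCarli alcohol feeding, a liquid diet in which ethanol supplies part of the energy, so no value here comes from a liver without alcohol. Other groups enter only beside these 6 libraries: 3 females with both the Kdm5 vectors and AAV-shAhR (directed against the aryl hydrocarbon receptor gene), 3 females with the control hairpin and then AAV-shAhR, and males with the same injections. Strain, age, the promoter that drives the hairpins and the cell types it acts in were not given in the sources used here. The labels treat each library as 1 mouse and say nothing of litter or cage. The p-values rest on the spread between mice within groups, pooled over all 24 libraries, males included. They do not rest on the spread of these 6 mice alone.

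Kdm5b and Kdm5c remove methyl groups from lysine 4 of histone H3, a mark carried by active promoters. Kdm5c lies on the X chromosome and escapes X inactivation, so that cells with a pair of X chromosomes express both copies. The liver makes bile acids from cholesterol through a chain of enzymes that starts with Cyp7a1, sends them into bile through the pump Abcb11, and takes them back from blood. It also oxidises fatty acids, makes ketone bodies and conjugates foreign compounds, and several of these enzymes differ between the sexes.

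The values are FPKM, a count of sequenced fragments scaled by transcript length and by the size of the library, for a table of 2372 genes. How those genes were chosen is not stated. The rows stand in order of p in an equal-variance comparison of just these 6 libraries, with 15.3% of them below 0.05, so that shares of called genes hold within this table only. FPKM does not keep the number of reads, so the depth is unknown and no counting interval can be set. Fold changes are Kdm5 over control of log2(FPKM + 0.5), where the added 0.5 shrinks the changes of low genes. Each is given ± its standard error (SE) with n = 3 mice a group. That error uses the spread of the gene pooled over all 24 libraries of both sexes. A gene is called where limma's Benjamini-Hochberg adjusted p over 2299 tested genes is below 0.05. In whole liver, fewer cells of a type and less RNA per cell cannot be told apart.

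Kdm5c, the targeted gene that could be followed (chromosome X, 152233198 to 152279102 of GRCm38.p6), measured 9.94, 9.9 and 9.05 FPKM in Kdm5 females, against 11.1, 9.32 and 10.6 FPKM in control females. The groups overlapped. Its log2 fold change was -0.09 ± 0.11 (SE, adjusted p = 0.66), with a 95% confidence interval from -0.32 to 0.13. A fall of the target in these females is thus not shown, and the groups go by their labels throughout. Kdm5c measured 10.2, 12.5 and 9.37 FPKM in females with both vectors, against 13.1, 12.9 and 12 FPKM in females with the AhR vector alone, a log2 fold change of -0.25 ± 0.11 (SE, adjusted p = 0.29). In males it measured 4.89, 4.64 and 5.89 FPKM with the Kdm5 vectors, against 6.39, 6.8 and 7.21 FPKM with control vectors, and those groups were apart, with -0.38 ± 0.11 (SE, adjusted p = 0.139) on the log2 scale. Kdm5b was not analysed here. Over all vectors, males lay between 4.64 and 7.81 FPKM in 12 libraries and females between 9.05 and 13.07 FPKM in the other 12.

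Kdm5 females differed from control females in 158 of 2299 genes, which is 6.87% of those tested. Of these, 78 were higher (3.39%) and 80 lower (3.48%), while 536 genes had an unadjusted p below 0.05. Most changes were small. Among the genes called higher, 8 were higher by 2-fold or more, 27 by 1.5 to 2-fold and 43 by less than 1.5-fold. Among those called lower the numbers were 10, 36 and 34. The ranges of both groups were apart for all 78 genes called higher and for 74 of the 80 called lower, beside 548 of all tested genes (23.8%; 11.6% higher and 12.3% lower).

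The calls leaned on control mouse 1. Without it 23 genes were called, against 279 without control mouse 2 and 106 without control mouse 3. Leaving out Kdm5 mouse 1, 2 or 3 gave 86, 74 or 100 called genes. Over the 158 genes, the control mouse nearest to the mean of the Kdm5 females was mouse 2 for 81 genes, mouse 3 for 56 and mouse 1 for 21. A fit to these 6 libraries alone called 1 gene (415 had an unadjusted p below 0.05), a fit to the 12 female libraries called 58, and the fit with library weights 331. Calls in all 6 fits that each left out 1 of these libraries were made for 20 genes, 11 higher and 9 lower, and 6 of the 158 genes were called in none of those fits.

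**Figure D1:**
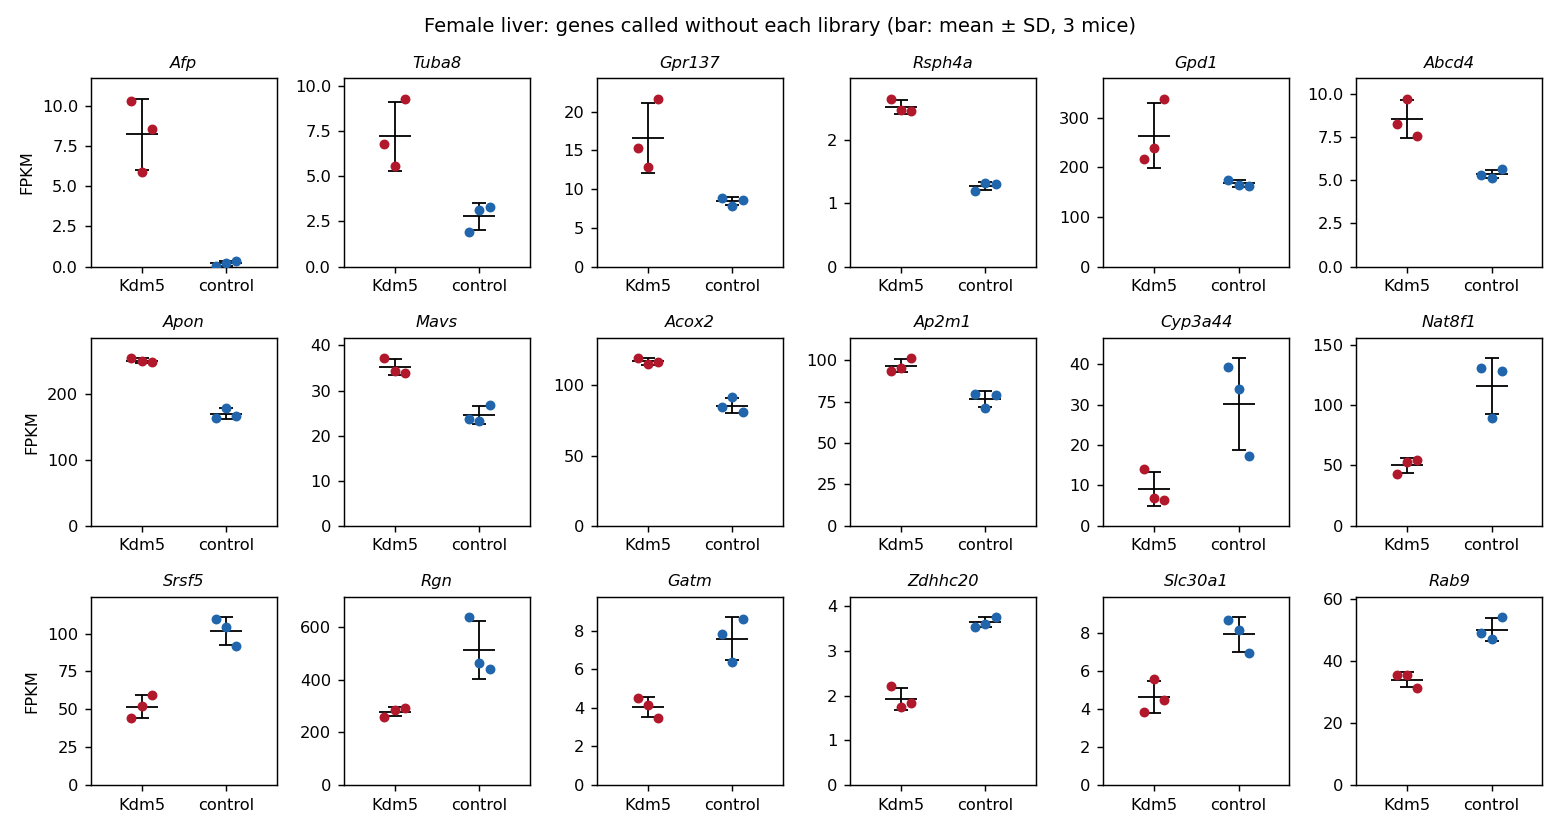
FPKM of 18 of the 20 genes called in every fit that left out 1 library, with 1 point per mouse, Kdm5 females on the left and control females on the right; bars give the mean and SD of 3 mice and each vertical axis starts at 0. The points of the groups do not overlap in any panel, which the choice of genes by calls in these libraries nearly fixes. Afp is the gene whose control mice lie near 0.

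Afp encodes alpha-fetoprotein, a serum protein of the fetal liver that the adult liver normally makes little of (chromosome 5, 90490714 to 90508907). It measured 10.3, 5.85 and 8.54 FPKM in Kdm5 females, against 0.05, 0.23 and 0.33 FPKM in control females. Control females lay near 0 and every Kdm5 female lay above 5 FPKM. The log2 fold change was 3.62 ± 0.29 (SE, adjusted p = 1.59e-07), and it ran from 3.45 to 3.83 when 1 library was left out. The same gene was high in every female that had received AAV-shAhR: 16, 25.2 and 21.4 FPKM in females with both vectors, against 10.1, 16.9 and 20.4 FPKM in females with the AhR vector alone. Those groups overlapped, and their log2 fold change was 0.42 ± 0.29 (SE, adjusted p = 0.526). All 12 male libraries lay between 0.16 and 1.01 FPKM, whatever their vectors. Control females were thus the female group with low Afp, and the other 3 female groups had it at 5.85 FPKM or more. Of the other 6 tested genes of the fetal liver list, 1 was called higher, beside 3.39% of all tested genes. It was Igf2, a growth factor gene of fetal liver. Igf2 measured 0.55, 0.55 and 0.71 FPKM in Kdm5 females, against 0.44, 0.16 and 0.19 FPKM in control females. Its log2 fold change was 0.55 ± 0.16 (SE, adjusted p = 0.0471). Igf2 was below 1 FPKM in all 6 mice and was called in 1 of the 6 fits that left out a library.

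The stretches before the start sites of Afp and of 3 bile acid genes called in these females (Cyp8b1, Cyp2c70 and Abcb11, whose levels follow) are shown. Usable promoters were found for 8 such genes, and those of Akr1c6, Acox2, Abcb1a and Slc22a26 are not printed. Each run gives the 250 bases before the RefSeq start site in GRCm38.p6, in the direction of transcription, in lower case. Capitals mark TATAAA, the core of the TATA box, and AGGTCA, the letters that many nuclear receptors bind, on either strand (TTTATA and TGACCT on the other).
Afp (chr5:90490464-90490713, plus strand): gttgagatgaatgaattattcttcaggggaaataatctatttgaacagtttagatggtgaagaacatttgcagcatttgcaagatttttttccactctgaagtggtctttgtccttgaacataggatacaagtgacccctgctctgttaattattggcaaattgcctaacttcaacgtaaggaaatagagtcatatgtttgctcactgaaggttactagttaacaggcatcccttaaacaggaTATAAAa
Cyp8b1 (chr9:121916306-121916555, minus strand): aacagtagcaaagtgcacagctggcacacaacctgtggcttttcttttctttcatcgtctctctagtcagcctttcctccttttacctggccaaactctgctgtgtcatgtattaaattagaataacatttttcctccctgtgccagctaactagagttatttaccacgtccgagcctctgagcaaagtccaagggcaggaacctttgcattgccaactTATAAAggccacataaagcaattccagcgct
Cyp2c70 (chr19:40187287-40187536, minus strand): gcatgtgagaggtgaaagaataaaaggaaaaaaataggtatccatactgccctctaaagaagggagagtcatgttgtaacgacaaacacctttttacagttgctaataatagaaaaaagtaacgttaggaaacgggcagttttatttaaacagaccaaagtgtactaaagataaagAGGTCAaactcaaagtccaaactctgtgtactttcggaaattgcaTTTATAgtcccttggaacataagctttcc
Abcb11 (chr2:69342617-69342866, minus strand): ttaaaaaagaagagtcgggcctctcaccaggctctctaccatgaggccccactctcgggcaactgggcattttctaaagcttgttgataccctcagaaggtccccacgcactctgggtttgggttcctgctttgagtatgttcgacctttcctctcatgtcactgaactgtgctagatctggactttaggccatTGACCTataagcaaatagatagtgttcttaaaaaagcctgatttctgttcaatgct

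TATAAA was found in the runs of Afp, Cyp8b1 and Cyp2c70, and AGGTCA in those of Cyp2c70 and Abcb11. Counted from the start site, the first base of TATAAA stood at -7 in Afp, -31 in Cyp8b1 and -29 in Cyp2c70. Among the promoters not printed, that of Akr1c6 held TATAAA at -164, and those of Acox2, Abcb1a and Slc22a26 held neither. Whether any of these matches acts as a TATA box was not tested. Of the genes with a RefSeq promoter, AGGTCA stood in 5 of 59 called higher (8.47%), 11 of 69 called lower (15.9%) and 263 of all 1827 (14.4%). TATAAA stood in 10.2% of the genes called higher, 11.6% of those called lower and 9.36% of all. CACGTG, the E-box, stood in 9 of 59 called higher (15.3%), 1 of 69 called lower (1.45%) and 145 of 1827 (7.94%). CCAAT stood in 32.2%, 43.5% and 37.9% in the same order, TGACGT in 11.9%, 7.25% and 7.94%, and TGTTTAC in 1.69%, 2.9% and 2.96%. These are matches of letters on either strand, described without a test.

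Bile acid synthesis moved in both directions. Of 15 tested members, 4 rose and 2 fell, beside 3.39% called higher and 3.48% called lower over all tested genes, and the median log2 fold change was -0.05, beside -0.02. Cyp7a1, the cholesterol 7-alpha-hydroxylase and first enzyme of the main pathway (chromosome 4, 6265612 to 6275632), measured 49.5, 31.2 and 27.7 FPKM in Kdm5 females, against 5.57, 17.7 and 1.86 FPKM in control females. All Kdm5 females were higher, and control mouse 2 lay closest to them. The log2 fold change was 2.47 ± 0.68 (SE, adjusted p = 0.0341), and the gene was called in 1 of the 6 fits that left out a library (without control mouse 2), with an adjusted p of up to 0.153 in the others. Cyp8b1, the sterol 12-alpha-hydroxylase that sets how much cholic acid is made (chromosome 9, 121914356 to 121916305), measured 361, 349 and 327 FPKM in Kdm5 females, against 85, 286 and 55.1 FPKM in control females. Its log2 fold change of 1.64 ± 0.38 (SE, adjusted p = 0.0142) again ran against control mice that spread widely, and it lost its call without control mouse 1 or 3, with an adjusted p of up to 0.0815.

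Acox2 and Hsd17b4, peroxisomal enzymes that shorten the side chain of bile acid precursors, rose by less but with tighter groups. Acox2 measured 119.8, 115 and 117 FPKM in Kdm5 females, against 84.8, 91.5 and 80.8 FPKM in control females, a log2 fold change of 0.45 ± 0.09 (SE, adjusted p = 0.00826), and was called in every fit that left out a library. Hsd17b4 measured 255, 232 and 233 FPKM in Kdm5 females, against 167, 188 and 179 FPKM in control females, a log2 fold change of 0.43 ± 0.10 (SE, adjusted p = 0.0142), and was not called without control mouse 1 or Kdm5 mouse 1, with an adjusted p of up to 0.0813. The members that fell act elsewhere in the pathway. Cyp2c70, which makes the muricholic acids of mice (chromosome 19, 40153361 to 40187286), measured 74.8, 57.4 and 76.1 FPKM in Kdm5 females, against 302, 138 and 216 FPKM in control females. The lowest control female lay above every Kdm5 female, and the log2 fold change was -1.59 ± 0.37 (SE, adjusted p = 0.0161), with a highest adjusted p of 0.0984 when 1 library was left out (without control mouse 1 or Kdm5 mouse 2 it was not called). Akr1c6, a steroid dehydrogenase of the aldo-keto reductase family, measured 284, 322 and 408 FPKM in Kdm5 females, against 612, 412 and 601 FPKM in control females, a log2 fold change of -0.67 ± 0.20 (SE, adjusted p = 0.0485); it was called in 2 of the 6 fits that left out a library. Cyp27a1 of the alternative pathway and the conjugating enzymes Baat and Slc27a5 did not pass, with log2 fold changes of -0.17, -0.06 and -0.21.

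Transporters of bile acids and organic anions that passed were all lower: 3 of 15 tested, beside 3.48% called lower over all tested genes, with a median log2 fold change of -0.38 over the list. Abcb11, the bile salt export pump (chromosome 2, 69238282 to 69342616), measured 73.8, 63.9 and 59.9 FPKM in Kdm5 females, against 155, 83.6 and 127 FPKM in control females. Its log2 fold change was -0.84 ± 0.19 (SE, adjusted p = 0.0129), and it lost its call without control mouse 1 (adjusted p of 0.0839). Abcb1a, an efflux pump for drugs, measured 1.84, 1.43 and 1.47 FPKM in Kdm5 females, against 3.57, 3.09 and 3.72 FPKM in control females, a log2 fold change of -0.93 ± 0.21 (SE, adjusted p = 0.0137), and was not called without control mouse 1 or Kdm5 mouse 2. In both pumps every Kdm5 female lay below every control female. The anion carrier Slc22a26 measured 35.5, 32.8 and 34.9 FPKM in Kdm5 females, against 64.3, 49.1 and 70.9 FPKM in control females, a log2 fold change of -0.81 ± 0.24 (SE, adjusted p = 0.0478), and was called in 1 of the 6 fits that left out a library. Slc10a1, which takes bile acids up from blood, stood at 734, 826 and 786 FPKM in Kdm5 females, against 589, 674 and 574 FPKM in control females, a log2 fold change of 0.36 ± 0.12 (SE, adjusted p = 0.0741). It did not pass. The 4 tested genes of bile acid sensing included none that passed.

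**Figure D2:**
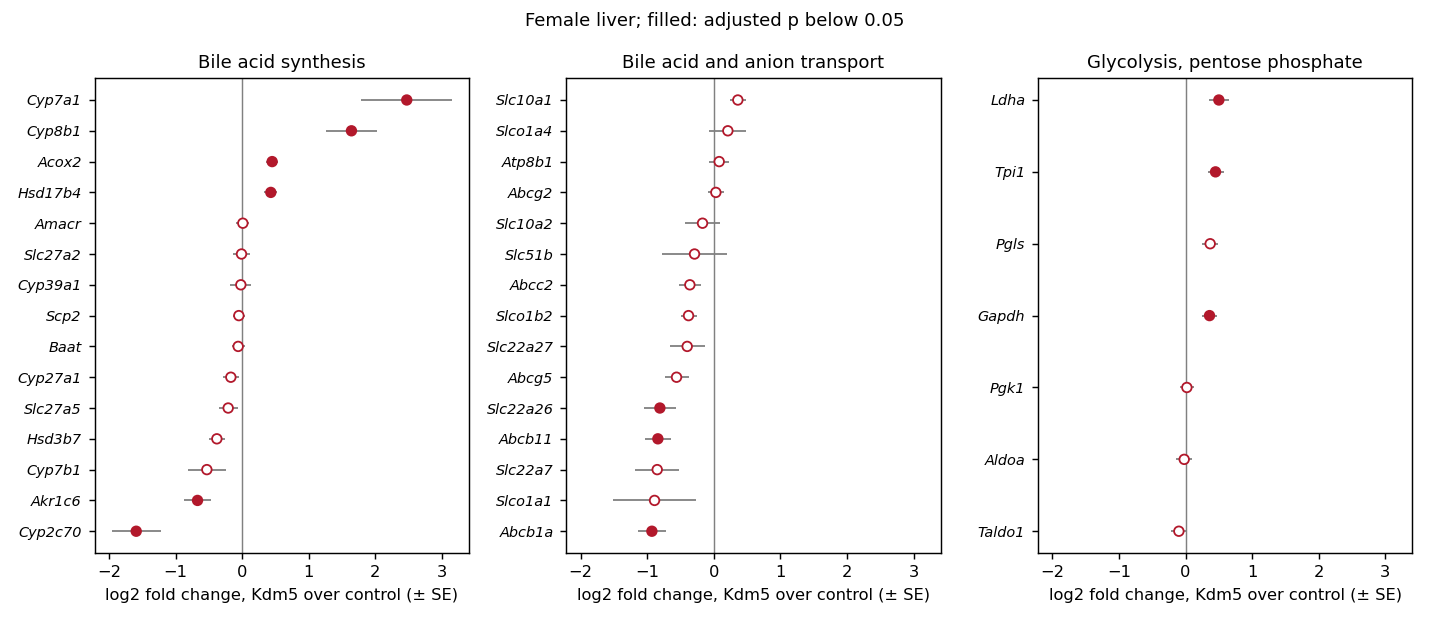
Log2 fold change of Kdm5 over control females for the tested members of 3 gene lists, with lines of 1 standard error; filled points have an adjusted p below 0.05. In bile acid synthesis Cyp7a1 and Cyp8b1 stand at the far right and Cyp2c70 at the far left, the filled points of transport all lie left of 0, and those of glycolysis all lie right of 0.

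In cholesterol synthesis the control females differed widely among themselves. Of 9 tested members 1 was called, and it was lower, beside 3.48% called lower over all tested genes. Below 0 lay 7 members, beside 1226 of all 2299 genes, and the median was -0.69, beside -0.02. Lss, the lanosterol synthase, measured 2.42, 2.08 and 1.85 FPKM in Kdm5 females, against 6.09, 2.61 and 3.9 FPKM in control females, a log2 fold change of -0.78 ± 0.22 (SE, adjusted p = 0.039), and was called only without control mouse 2 among the fits that left out a library. Fdps, the farnesyl diphosphate synthase, did not pass, at 14.8, 14.3 and 22.3 FPKM in Kdm5 females, against 59.5, 14.6 and 47.1 FPKM in control females. Cyp51, the lanosterol demethylase, did not pass either, at 5.62, 5.46 and 7.76 FPKM in Kdm5 females, against 24.7, 6.38 and 14.3 FPKM in control females. In both genes control mouse 2 lay within the range of the Kdm5 females, and control mice 1 and 3 lay above every Kdm5 female.

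**Figure D3:**
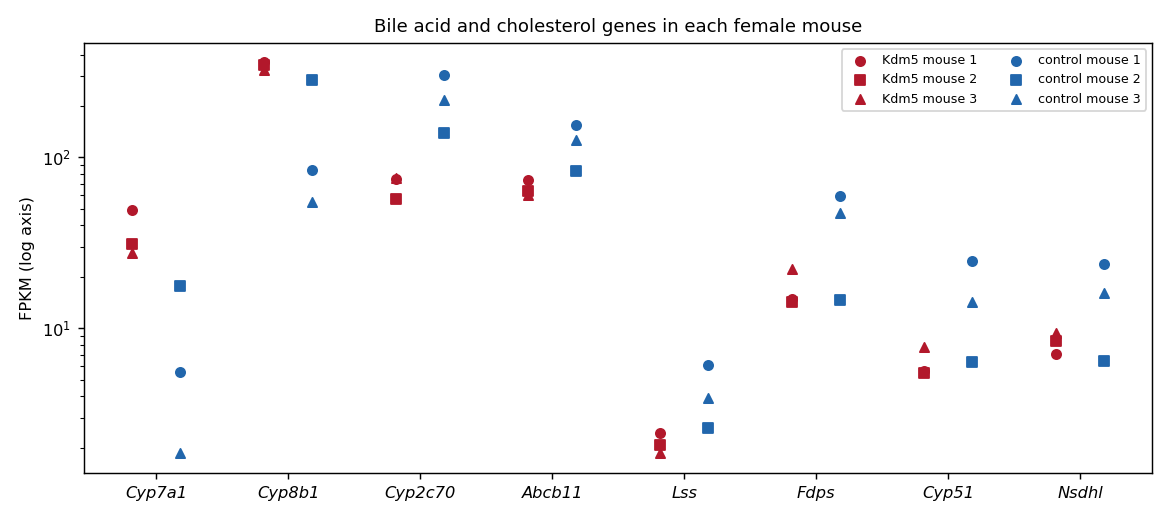
FPKM on a log axis of 8 bile acid and cholesterol genes in each female mouse, Kdm5 females in red left of control females in blue, with 1 marker shape per mouse. Control mouse 2 (blue square) is the control point nearest to the Kdm5 females for Cyp7a1, Cyp8b1, Cyp2c70, Abcb11 and Lss, lies within their range for Fdps and Cyp51, and below it for Nsdhl.

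Fatty acid oxidation genes rose in a few members. Of 34 tested genes of the PPAR alpha list, 3 rose (3.39% of all tested genes did) and none fell, while 27 lay above 0 (1072 of all 2299 did, 46.6%) and the median was 0.17. Cpt2, the inner carnitine palmitoyltransferase of mitochondria, measured 131, 118 and 143 FPKM in Kdm5 females, against 85.9, 104 and 91 FPKM in control females, a log2 fold change of 0.47 ± 0.14 (SE, adjusted p = 0.0389). Hadha, a subunit of the trifunctional protein of fatty acid oxidation, measured 157, 149 and 156 FPKM in Kdm5 females, against 122, 117 and 134 FPKM in control females, a log2 fold change of 0.31 ± 0.09 (SE, adjusted p = 0.0455). Cpt2 and Hadha were each called in 1 of the 6 fits that left out a library. Cyp4a14, a fatty acid hydroxylase and a common readout of PPAR alpha, did not pass although its groups were apart: it stood at 3382, 3598 and 3481 FPKM in Kdm5 females, against 1585, 2648 and 1948 FPKM in control females, a log2 fold change of 0.79 ± 0.25 (SE, adjusted p = 0.0566).

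Glycolytic genes that passed were higher: 3 of 7 tested, beside 3.39% of all tested genes, with a median of 0.36. Ldha, lactate dehydrogenase A, measured 776, 650.1 and 669.6 FPKM in Kdm5 females, against 532, 447 and 500.1 FPKM in control females, a log2 fold change of 0.50 ± 0.15 (SE, adjusted p = 0.044). Tpi1, the triosephosphate isomerase, had a log2 fold change of 0.45 ± 0.12 (SE, adjusted p = 0.0363), and Gapdh, often used as a reference gene, had a log2 fold change of 0.36 ± 0.11 (SE, adjusted p = 0.048) at 1553, 1488 and 1456 FPKM in Kdm5 females, against 1140.4, 1297 and 1083 FPKM in control females. These are small changes. Ldha was called in none of the fits that left out a library, and Tpi1 and Gapdh in 1 each. Gpd1, which links glycolysis to glycerol synthesis, measured 216, 238 and 338 FPKM in Kdm5 females, against 175, 164 and 163 FPKM in control females, a log2 fold change of 0.63 ± 0.14 (SE, adjusted p = 0.0122), and was called in all of them.

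Of 16 tested genes of insulin signalling 2 were higher, beside 3.39% of all tested genes, and none lower. Irs2, the insulin receptor substrate that is prominent in liver, measured 6.83, 7.86 and 4.83 FPKM in Kdm5 females, against 1.61, 2.6 and 3.7 FPKM in control females. No value overlapped, the log2 fold change was 1.19 ± 0.24 (SE, adjusted p = 0.00826), and its adjusted p was 0.0559 without control mouse 1. Pfkfb1, which makes the activator of glycolysis fructose 2,6-bisphosphate, measured 16.1, 14.3 and 10.6 FPKM in Kdm5 females, against 10.0, 7.66 and 5.85 FPKM in control females, a log2 fold change of 0.77 ± 0.17 (SE, adjusted p = 0.013), and lost its call without control mouse 3 or Kdm5 mouse 1. G6pc and Pck1, the genes for glucose 6-phosphatase and phosphoenolpyruvate carboxykinase, did not pass. Their log2 fold changes were 0.52 and -0.30.

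Of 17 tested hepatocyte transcription factors, 4 were higher and 1 lower, beside 3.39% and 3.48% of all tested genes, with a median of 0.09. Cebpa, a factor of hepatocyte differentiation and gluconeogenesis, measured 133, 151 and 174 FPKM in Kdm5 females, against 94.1, 102 and 112 FPKM in control females, a log2 fold change of 0.56 ± 0.12 (SE, adjusted p = 0.00896), and its adjusted p was 0.0592 without control mouse 1. Onecut1, also known as HNF6, was low and spread more, at 4.34, 6.07 and 3.25 FPKM in Kdm5 females, against 1.53, 3.16 and 1.78 FPKM in control females, a log2 fold change of 0.94 ± 0.25 (SE, adjusted p = 0.0332). Prox1, a homeobox factor of liver development, had a log2 fold change of 0.49 ± 0.14 (SE, adjusted p = 0.0415). Thrb, a thyroid hormone receptor, was the member that fell, to 3.87, 2.62 and 3.07 FPKM in Kdm5 females, against 5.7, 4.75 and 4.68 FPKM in control females, a log2 fold change of -0.60 ± 0.15 (SE, adjusted p = 0.0277). Onecut1, Prox1 and Thrb were called in 2, 1 and 3 of the 6 fits that left out a library. Hnf4a was at 175, 196 and 184 FPKM in Kdm5 females, against 192, 169 and 208 FPKM in control females, with overlapping groups.

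Among the genes called whichever library was left out, the tubulin gene Tuba8 was higher at 6.75, 5.55 and 9.28 FPKM in Kdm5 females, against 1.92, 3.14 and 3.27 FPKM in control females, a log2 fold change of 1.23 ± 0.20 (SE, adjusted p = 0.00462). Apon, an apolipoprotein gene, measured 254, 249 and 247 FPKM in Kdm5 females, against 164, 179 and 166 FPKM in control females, a log2 fold change of 0.56 ± 0.10 (SE, adjusted p = 0.00462). The 3 mice of each group lay close together. Mavs, the mitochondrial adaptor of RNA sensing, measured 37.3, 34.4 and 34 FPKM in Kdm5 females, against 23.7, 23.1 and 26.8 FPKM in control females, a log2 fold change of 0.51 ± 0.10 (SE, adjusted p = 0.00727). All 3 genes were higher in every Kdm5 female than in any control female. Of the 9 genes that fell in all those fits, Rgn (regucalcin, the gluconolactonase of vitamin C synthesis) was the most abundant, at 259, 283 and 292 FPKM in Kdm5 females, against 639, 462 and 439.9 FPKM in control females, a log2 fold change of -0.87 ± 0.16 (SE, adjusted p = 0.00657). Srsf5, a splicing factor gene, fell to 44.1, 51.9 and 59.4 FPKM in Kdm5 females, against 109, 105 and 91.5 FPKM in control females, a log2 fold change of -0.97 ± 0.18 (SE, adjusted p = 0.00651). Both of these genes are well expressed in liver, and no Kdm5 female reached the lowest control female. Gatm, which starts creatine synthesis, measured 4.49, 4.14 and 3.45 FPKM in Kdm5 females, against 7.8, 6.36 and 8.59 FPKM in control females, a log2 fold change of -0.83 ± 0.15 (SE, adjusted p = 0.00462). Of the rest of the 20 genes, Gpr137, a membrane protein gene, had a log2 fold change of 0.91 ± 0.18 (SE, adjusted p = 0.00732) and Abcd4, a transporter of vitamin B12, had a log2 fold change of 0.62 ± 0.12 (SE, adjusted p = 0.00868). Ap2m1, an adaptor subunit of clathrin coats, measured 93.6, 95.2 and 101 FPKM in Kdm5 females, against 79.8, 70.8 and 78.8 FPKM in control females, a log2 fold change of 0.34 ± 0.07 (SE, adjusted p = 0.00896). Among the lower ones, Slc30a1, a zinc exporter, had a log2 fold change of -0.73 ± 0.12 (SE, adjusted p = 0.00462), Zdhhc20, a palmitoyltransferase, had a log2 fold change of -0.77 ± 0.15 (SE, adjusted p = 0.00668), and Rab9, a small GTPase of late endosomes, had a log2 fold change of -0.55 ± 0.11 (SE, adjusted p = 0.00896). In all 18 genes of the plot of FPKM by mouse the ranges of the groups were apart, beside 23.8% of all tested genes. These genes were chosen by their calls in the same libraries, which nearly fixes this.

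Mavs also belongs to the interferon list, where 2 of 16 tested genes rose (Mavs and Tlr12), 1 fell (Ifi47) and the median was -0.25, beside 3.39% higher, 3.48% lower and a median of -0.02 over all tested genes. Unlike Mavs, Tlr12 was called in 3 and Ifi47 in 2 of the 6 fits that left out a library.

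In the lists of conjugating enzymes and of the Cyp2a, Cyp2b, Cyp2c, Cyp3a and Cyp4 families, the genes that passed were all lower. Of 44 tested genes of conjugation 5 fell and none rose, with a median of -0.11, and of 18 tested Cyp2a, Cyp2b and Cyp2c genes 2 fell and none rose, with a median of -0.39. Over all tested genes 3.48% were called lower, and the median was -0.02. Nat8f1, an acetyltransferase gene, measured 43.2, 52.7 and 54.7 FPKM in Kdm5 females, against 131, 89.5 and 128 FPKM in control females, a log2 fold change of -1.19 ± 0.22 (SE, adjusted p = 0.00668). The sulfotransferase Sult2a8 had a log2 fold change of -0.89 ± 0.25 (SE, adjusted p = 0.0364), and the glucuronosyltransferases Ugt2b1, Ugt2b36 and Ugt2a3 had log2 fold changes of -0.61, -0.50 and -0.50. Cyp2c69 measured 47.9, 43.3 and 89.9 FPKM in Kdm5 females, against 206, 83 and 273 FPKM in control females, a log2 fold change of -1.54 ± 0.43 (SE, adjusted p = 0.0375); here Kdm5 mouse 3 lay above control mouse 2. Of the 6 fits that left out a library, Sult2a8 was called in 1, Ugt2b1, Ugt2b36 and Cyp2c69 in 2 each, and Ugt2a3 in 3. Cyp3a44, of a family that oxidises drugs and steroids, was the called member of 15 tested Cyp3a and Cyp4 genes, at 14.1, 6.85 and 6.37 FPKM in Kdm5 females, against 39.2, 34 and 17.3 FPKM in control females, a log2 fold change of -1.68 ± 0.28 (SE, adjusted p = 0.00462). Close copies within the Cyp, Ugt2b and Sult2a families can share reads, so that single members are uncertain.

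None of 9 hepatocyte, 10 Kupffer cell and macrophage or 11 stellate cell and fibroblast markers passed. Over all tested genes 6.87% were called in either direction, and lists this short can hold no call at that share. The hepatocyte markers summed to 41264 to 48809 FPKM in Kdm5 females and 37517 to 44664 FPKM in control females. The Kupffer cell markers summed to 454 to 505 FPKM in Kdm5 females and 497 to 542 FPKM in control females, and the stellate cell markers to 544 to 598 FPKM and 464 to 574 FPKM in the same order. Of 9 markers of sinusoidal endothelium 2 rose, beside 3.39% of all tested genes: Lyve1, a hyaluronan receptor, at 15.9, 17.4 and 12.5 FPKM in Kdm5 females, against 8.47, 9.6 and 8.35 FPKM in control females, a log2 fold change of 0.75 ± 0.20 (SE, adjusted p = 0.0336), and Gpr182, a receptor of endothelial cells, at 35.7, 31.2 and 35.9 FPKM in Kdm5 females, against 20.7, 20.6 and 25.2 FPKM in control females, a log2 fold change of 0.62 ± 0.16 (SE, adjusted p = 0.0262). The other 7 had log2 fold changes between -0.22 (Mrc1) and 0.13 (Stab1), and the whole list summed to 132 to 133 FPKM in Kdm5 females and 111 to 130 FPKM in control females. Lyve1 and Gpr182 were called in 2 and 3 of the 6 fits that left out a library. None of 3 erythrocyte markers passed. The part of cell numbers in the results was not tested. Lymphocyte and neutrophil markers were not analysed here.

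The same vectors were also given to females that then received AAV-shAhR, and these 6 libraries share no mouse with the ones above. There, 16 of 2299 genes were called for females with both vectors against females with the AhR vector alone (0.696%), 12 higher (0.522%) and 4 lower (0.174%). The count was 5 without both-vector mouse 3 and 36 without AhR mouse 3. Of the 78 genes called higher in Kdm5 females, 59 were above 0 in this second set (75.6%, beside 58.4% of all tested genes), and of the 80 called lower, 59 were below 0 (73.8%, beside 41.6%). The median change of the second set was 0.17 for the first list and -0.19 for the other, smaller than the 0.57 and -0.62 that chose them. Without any one of the first 6 libraries, the share in the same direction was 77.4% to 85.0% for the genes then called higher and 64.2% to 79.3% for those called lower. Called in both sets were 5 genes. Those higher in both are 3.85% of the 78 and 25% of the 12. Those lower in both are 2.5% of the 80 and 50% of the 4. Over all tested genes 3.39% were called higher and 3.48% lower in the first set, and 0.522% and 0.174% in the second. Both sets take the spread of each gene from the same fit to all 24 libraries, so calls in both are not independent.

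These 5 genes were Acox2, Rsph4a and Sphk2, higher in both, and Cyp3a44 and Hist2h2aa1, lower in both. Acox2 (chromosome 14, 8225511 to 8259019) measured 128, 112 and 134 FPKM in females with both vectors, against 86.9, 76.2 and 94.4 FPKM in females with the AhR vector alone, a log2 fold change of 0.54 ± 0.09 (SE, adjusted p = 0.00553) beside 0.45 in Kdm5 over control females. Rsph4a, a radial spoke protein of cilia, measured 2.66, 2.48 and 2.46 FPKM in Kdm5 females, against 1.2, 1.32 and 1.31 FPKM in control females, a log2 fold change of 0.77 ± 0.14 (SE, adjusted p = 0.00462). In the second set it measured 2.27, 3.39 and 2.46 FPKM in females with both vectors, against 1.69, 1.59 and 1.38 FPKM in females with the AhR vector alone, a log2 fold change of 0.63 ± 0.14 (SE, adjusted p = 0.0314). It was at or below 0.16 FPKM in males with Kdm5 or control vectors.

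Sphk2, which makes sphingosine 1-phosphate in the nucleus and mitochondria, measured 29.7, 34.4 and 42.8 FPKM in Kdm5 females, against 20.1, 25.2 and 29.5 FPKM in control females, a log2 fold change of 0.51 ± 0.14 (SE, adjusted p = 0.0364). The second set had 40.3, 34.3 and 42.7 FPKM in females with both vectors, against 20.8, 25 and 28.9 FPKM in females with the AhR vector alone, a log2 fold change of 0.65 ± 0.14 (SE, adjusted p = 0.0314). Cyp3a44 measured 12.7, 10.1 and 6.59 FPKM in females with both vectors, against 26.3, 23.2 and 23.8 FPKM in females with the AhR vector alone in that set, a log2 fold change of -1.32 ± 0.28 (SE, adjusted p = 0.0314). Hist2h2aa1, a histone H2A gene with close copies, measured 41.8, 42 and 45.4 FPKM in Kdm5 females, against 73.5, 77.4 and 47.5 FPKM in control females, a log2 fold change of -0.58 ± 0.13 (SE, adjusted p = 0.0129), and 33.2, 38.1 and 34.8 FPKM in females with both vectors, against 52.2, 61.1 and 53 FPKM in females with the AhR vector alone, a log2 fold change of -0.64 ± 0.13 (SE, adjusted p = 0.0262). In all 5 genes the groups were apart in both sets; over all tested genes the groups of the second set were apart for 19.6%, 12.7% higher and 6.96% lower. In the first set Acox2, Rsph4a and Cyp3a44 were called whichever library was left out, Hist2h2aa1 not without control mouse 1, and Sphk2 in 3 of 6 fits. Other bile acid genes did not pass there. Cyp7a1, Cyp8b1 and Abcb11 had log2 fold changes of -0.03, -0.22 and -0.14 in the second set, and Cyp2c70 had one of -1.10 ± 0.37 (SE, adjusted p = 0.181).

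The effects with and without the AhR vector differed for 14 of 2299 genes (0.609%), 8 higher (0.348%) and 6 lower (0.261%); 1 gene was called without control female 1 or both-vector mouse 3. For Afp the difference of log2 fold changes was -3.20 ± 0.41 (SE, adjusted p = 0.000385), with both groups of the second set high, and for Tuba8 it was -1.62 ± 0.29 (SE, adjusted p = 0.0141). For Cyp7a1 it did not pass, at -2.50 ± 0.96 (SE, adjusted p = 0.328). The difference contains the libraries that chose these genes. Set directly against females with the AhR vector alone, Kdm5 females differed in 33 genes (1.44%), 17 higher (0.739%) and 16 lower (0.696%). This comparison shares the Kdm5 females with the first, and the AhR females with the second. Acox2 (119.8, 115 and 117 FPKM in Kdm5 females, against 86.9, 76.2 and 94.4 FPKM with the AhR vector) had a log2 fold change of 0.45 ± 0.09 (SE, adjusted p = 0.0249) and Cyp3a44 one of -1.46 ± 0.28 (SE, adjusted p = 0.0249). No gene was called there without Kdm5 mouse 2 (382 genes at an unadjusted p below 0.05) or without AhR mouse 2 (277 genes).

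**Figure D4:**
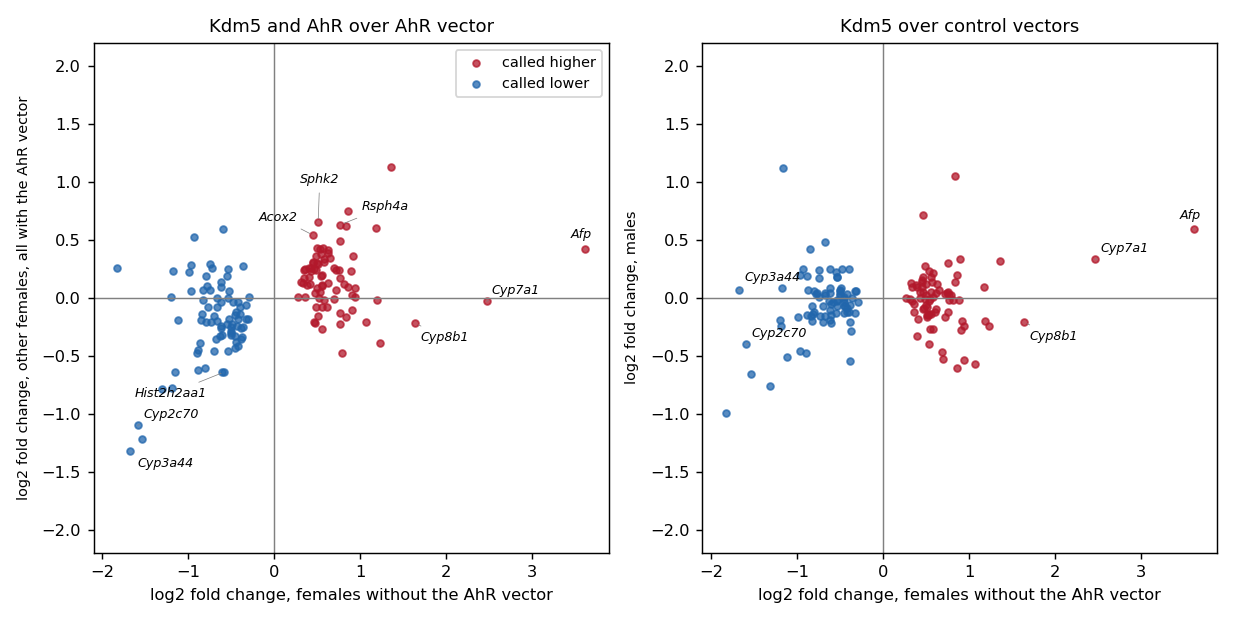
Log2 fold changes of the 158 genes called in Kdm5 over control females (horizontal axis) against their fold changes in females that all carry the AhR vector (left) and in males (right), with 1 point per gene, red for called higher and blue for called lower. On the left 59 of 78 red points lie above 0 and 59 of 80 blue points below it, and on the right 39 and 46 do.

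In males, 28 of 2299 genes were called for mice with the Kdm5 vectors against mice with control vectors (1.22%), 24 higher (1.04%) and 4 lower (0.174%). Without Kdm5 male 1 no gene was called (194 had an unadjusted p below 0.05), and without control male 1 there was 1. Of the 78 genes called higher in females, 39 were above 0 in males (50%, beside 52.7% of all tested genes). Of the 80 called lower, 46 were below 0 in males, beside 1087 of all 2299 tested genes. The median log2 fold changes in males were -0.00 and -0.04 in the same order, beside 0.01 over all tested genes. Called in both sexes in the same direction were Fam214a and Ppp2r5e, higher, and Wrnip1, lower. In females, of the 6 fits that left out a library, Fam214a was called in 3, Wrnip1 in 2 and Ppp2r5e in 0. The difference between the female and the male effect passed for 40 genes (1.74%), 19 positive (0.826%) and 21 negative (0.913%). It contains the libraries of the female comparison. For Cebpa it was 0.71 ± 0.17 (SE, adjusted p = 0.0344), with 108, 118 and 125 FPKM in males with the Kdm5 vectors and 138, 137 and 114 FPKM in males with control vectors. For Rgn it was -0.94 ± 0.23 (SE, adjusted p = 0.0385). For Cyp7a1, Cyp8b1 and Abcb11 it did not pass, with adjusted p-values of 0.249, 0.0824 and 0.193. The difference passed for 1 gene without control female 1 and for 2 without control male 3 or Kdm5 male 3.

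The genes called in Kdm5 females were also set beside the sex bias of the same genes, which was read from mice with the AhR vector alone, 3 females over 3 males. These are not among the 6 libraries compared above, but all 24 libraries share the estimate of spread behind the calls. In those mice 902 of 2299 genes differed by sex (39.2%), 566 higher in females (24.6%) and 336 lower (14.6%). Of the 80 genes called lower in Kdm5 females, 33 were higher in females (41.2%) and 6 lower (7.5%). Of the 78 called higher, 11 were higher in females (14.1%) and 21 lower (26.9%). With median-of-ratios scaling the shares higher in females were 32.6% of the genes called lower, 12.7% of those called higher and 21% of all, and those lower in females were 9.3%, 31.4% and 20.9%. The order of the 3 sets was thus the same under both scalings. Without control female 1, 4 of 9 genes called lower (44.4%) and 5 of 14 called higher (35.7%) were higher in females, so that the share for genes called higher then lay above that of all genes.

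Among the genes called lower were Cyp3a44, Cyp2c69 and Slc22a26, with log2 fold changes of females over males of 5.64, 8.15 and 5.66 in mice with the AhR vector. Afp, called higher, was also higher in females among mice with the AhR vector, at 3.82. With control vectors Afp measured 0.05, 0.23 and 0.33 FPKM in females, against 0.35, 0.34 and 0.17 FPKM in males. Cyp2b13 and Cyp2a4, with 7.69 and 8.98 for females over males, did not pass in Kdm5 over control females. Cyp2b13 measured 122, 118 and 132 FPKM in Kdm5 females, against 119.7, 140.1 and 78.2 FPKM in control females, a log2 fold change of 0.17 ± 0.22 (SE, adjusted p = 0.696), and Cyp2a4 measured 236, 161 and 361 FPKM in Kdm5 females, against 261, 254 and 409 FPKM in control females, a log2 fold change of -0.33 ± 0.37 (SE, adjusted p = 0.649). Of 37 tested genes of a list of female-biased liver genes 3 fell and none rose, and of 50 male-biased ones 3 fell and none rose, beside 3.48% called lower and 3.39% called higher over all tested genes.

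**Figure D5:**
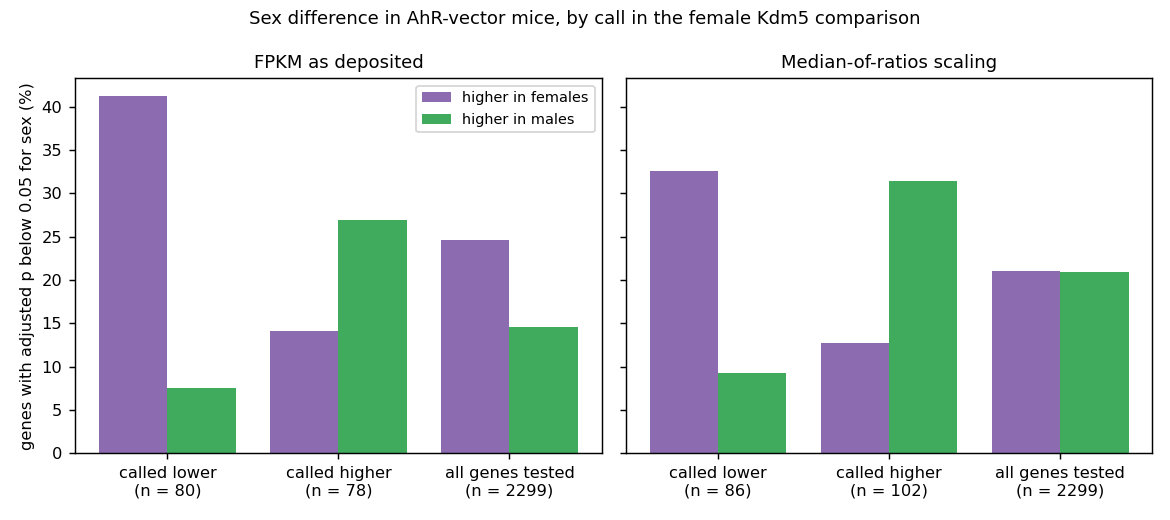
Share of genes that were higher in females (purple) or higher in males (green) at an adjusted p below 0.05 in mice with the AhR vector alone, for genes called lower and called higher in Kdm5 over control females and for all 2299 tested genes, under both scalings. The genes called lower have the tallest purple bar (41.2% and 32.6%), and those called higher the tallest green bar (26.9% and 31.4%).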

How the data were processed

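RNA of whole liver was sequenced, with 1 library per mouse in the labels. The deposited values are FPKM that the authors rounded to 2 decimals, per the file headers, although the deposited name speaks of raw counts, so the count model that the design named as an option was not used. HISAT and Bowtie2 with GRCm38.p6 are listed in the submitters' processing notes; versions, the counting step and its use of strand were not given in the sources used here, so overlapping genes cannot be told apart. Values were tested as log2(FPKM + 0.5) with limma 3.58.1 in R 4.3.3: all 24 libraries, 1 mean per group of 3, intensity trend, robust moderation, 16 residual degrees of freedom, two-sided, Benjamini-Hochberg over 2299 genes that reached 1 FPKM in 3 or more libraries (73 left out). The female comparison, 6 further contrasts and gene lists (counts and medians, no set test) were described. The members and lists were chosen with earlier results of these data known.

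Named genes were Kdm5c; among called genes with a mean of at least 1 FPKM and no overlap, the 20 highest, 20 lowest and 6 most abundant in each direction; up to 4 called members per list; and the 6 highest and 6 lowest of each other contrast. Outside this rule and after their values were seen, the text also names Acox2, Hsd17b4, Apon, Gpd1, Prox1, Ugt2b36, Ap2m1, Slc30a1, Zdhhc20, Rab9, Rsph4a, Sphk2 and Ppp2r5e, and list members that did not pass. Some genes that the rule names are not reported here. Replicates were numbered in sample order. The procedure was tested on simulated data. Promoters are RefSeq's for GRCm38.p6, found for 1827 tested genes, the first listed per gene, with 250 bases kept; of 10 genes sought for printing (Afp and called bile acid genes) 8 had one that could be used. Alternatives were another scaling, filters, pseudocounts (0.1 and 1), library weights, plain moderation, smaller sets of libraries and leaving out each library.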

Additional observations from a re-analysis of the deposited data

Results flagged for a closer look

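The female effect of the Kdm5 vectors differed from the male effect, by limma's test of the difference itself (Benjamini-Hochberg adjusted p below 0.05), for 23 named genes, as differences of log2 fold changes, females minus males. It was positive for Afp (3.03), Hspa1b (2.08), Onecut1 (1.48), Tuba8 (1.47), Tsc22d1 (1.47), Irs2 (1.39), Gpr137 (1.19), Paqr9 (1.18), Cebpa (0.71), Mavs (0.66) and Pnrc1 (0.51). It was negative for Lpin1 (-3.66), Il1r1 (-2.13), Cyp3a44 (-1.75), Ppargc1a (-1.57), Herpud1 (-1.39), Slc38a2 (-1.27), Rhobtb1 (-1.21), Srsf5 (-1.18), Abcb1a (-1.18), Akr1c19 (-1.08), Rgn (-0.94) and Ddx3x (-0.65). Lpin1, Il1r1, Rhobtb1, Pnrc1 and Herpud1 were called in males and not in females. Hspa1b and Ppargc1a were called in neither sex alone. Named genes include the extremes of the female comparison and of this difference, so their passing is partly fixed by the choice. Over all tested genes the difference passed for 1.74%. Without control female 1 it passed for 1 gene, and without control male 3 or Kdm5 male 3 for 2.

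The effect in females with the AhR vector differed from that without it for 11 named genes, as differences of log2 fold changes, with minus without. It was positive for Abcb1a (1.45), Srsf5 (1.25), Thrb (1.19), Ak4 (0.99) and Spata2l (0.89). It was negative for Afp (-3.20), Tuba8 (-1.62), Rtn4rl1 (-1.27), Nfil3 (-1.26), Mavs (-0.68) and Dpy19l1 (-0.68). Spata2l and Nfil3 were called in the females with the AhR vector and not in those without, and Ak4 in neither. The same limit of choice holds here. Over all tested genes this difference passed for 0.609%, and for 1 gene without control female 1 or both-vector mouse 3.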

How the results depend on the processing

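For genes picked by the naming rule, recomputed in the contrasts where they were called, no direction was reversed (0 reversed). Called genes, many of them picked with groups that do not overlap, could hardly reverse, so this says little. Calls were lost in 235 single results under other settings (1494 were as before) and in 615 when a library was left out (873 were as before). The count of called genes in Kdm5 over control females (158) was 331 with library weights, 1 with the 6 libraries alone and 58 with the 12 female libraries, and between 23 and 279 when 1 library was left out. In males (28) it was 66 with library weights, 18 with the compared groups alone and 0 to 14 without 1 library (0 without Kdm5 male 1, with 194 genes at an unadjusted p below 0.05). For the difference between the sexes (40) it was 145, 15 and 1 to 67 under the same settings. For females with the AhR vector (16) it was 37, 0 (292 genes at an unadjusted p below 0.05) and 5 to 36. For the difference with minus without that vector (14) it was 1 with the compared groups alone and 1 to 23 without 1 library. For Kdm5 females over AhR females (33) it was 54 with median-of-ratios scaling, 13 with a pseudocount of 0.1, 10 with library weights, 0 with the compared groups alone (315 genes at an unadjusted p below 0.05) and 0 to 69 without 1 library. The cause was not tested, except that the smaller fits hold fewer libraries. The sex difference in AhR mice gave 669 to 871 genes without 1 library, and median-of-ratios scaling split it 483 higher and 481 lower, against 566 and 336. With limma fits that leave a group with 2 mice, those mice are assumed to vary like the other groups. No paired analysis was possible because the labels give the mice no replicate numbers that groups share. Depth is not known from FPKM, so changes of genes below 1 FPKM, such as Igf2, carry an unknown counting error.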

Other observations

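Control mouse 2 stood apart from control mice 1 and 3 in further metabolic genes. Asl, the argininosuccinate lyase of the urea cycle, measured 535, 483 and 349 FPKM in Kdm5 females, against 198, 621 and 203 FPKM in control females. Ass1, the enzyme before it, measured 2122, 2257 and 1758 FPKM in Kdm5 females, against 1244, 2760.0 and 1181 FPKM in control females. Oat, the ornithine aminotransferase of amino acid breakdown, measured 339.9, 429 and 269.9 FPKM in Kdm5 females, against 151, 429 and 142 FPKM in control females. In Asl and Ass1 every Kdm5 female lay between control mouse 2 and the other control females, and in Oat 1 Kdm5 female was level with control mouse 2. None passed, with log2 fold changes of 0.62 ± 0.33 (SE, adjusted p = 0.269), 0.35 ± 0.25 (SE, adjusted p = 0.422) and 0.70 ± 0.31 (SE, adjusted p = 0.175). Tdo2, the tryptophan dioxygenase, had the same order, with 757, 873 and 807 FPKM in Kdm5 females, against 572, 1089.7 and 574 FPKM in control females. These genes were chosen after their values were seen. Over all tested genes, control mouse 2 lay little further from its group than control mouse 3. The median log2 distance from the mean of the remaining control mice was 0.203 for mouse 2, 0.191 for mouse 3 and 0.147 for mouse 1.

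Genes of MHC class II presentation, which mark macrophages and other antigen-presenting cells, lay below 0 in all 6 tested members, beside 1226 of all 2299 tested genes. None of the 6 passed, beside 3.48% called lower over all tested genes. Cd74, the invariant chain, measured 87.2, 77.8 and 129 FPKM in Kdm5 females, against 132, 115 and 119 FPKM in control females, with Kdm5 mouse 3 among the control females, and H2-Eb1 had a log2 fold change of -0.71 ± 0.26 (SE, adjusted p = 0.0963). The 6 genes summed to 163 to 264 FPKM in Kdm5 females and 246 to 282 FPKM in control females, with a median log2 fold change of -0.38; the part of cell numbers in this was not tested. Respiratory chain genes, by contrast, were centred on the rest of the table, with 1 of 69 called (Cox7a1, lower, at 0.74, 0.4 and 0 FPKM in Kdm5 females, against 1.46, 2.76 and 3.41 FPKM in control females) and a median of -0.01. Clock genes included none called among 14 tested. Over all tested genes 6.87% were called in either direction, and the median was -0.02.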
